A study of Mus musculus with 4 samples.

Results

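The genes described are the chemokines and chemokine receptors of mouse leukaemic cells, taken by gene symbol: the numbered Ccl and Cxcl ligands, Cx3cl1, the numbered Ccr and Cxcr receptors, Ccrl2, Cx3cr1 and Xcr1. The rule used names only and no measured value. It took 41 of the 16545 symbols in the authors' deposited table, 25 ligands and 16 receptors, on 43 of its 18061 RefSeq transcripts. Ccl25 and Cxcl12 had a pair of transcripts each, and the one with the higher mean stands for the gene. Chemokines are small secreted proteins that draw leukocytes up a gradient. Each binds one or several receptors of the G protein coupled kind, which signal through the Gi class of G proteins to steer the cell. In myeloid cells the CC ligands mainly attract monocytes, and the CXC ligands that bind Cxcr2 attract neutrophils, while Cxcr4 and its ligand Cxcl12 hold immature cells in bone marrow.

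Cells were treated with OHT for 72 h (2 samples) or, as controls, with EtOH for 72 h (2 samples). OHT is in common usage 4-hydroxytamoxifen, a ligand that switches on tamoxifen-dependent Cre recombinases, and EtOH is ethanol, its usual solvent. All 4 samples were leukaemic cells carrying the MLL-AF9 fusion, grown in liquid culture from bone marrow of C57BL/6 mice. The mice were labelled Ring1a-/-, Ring1b f/f and Cdkn2a-/-, and by that genotype the controls too lacked Ring1a and Cdkn2a. Ring1a and Ring1b encode ubiquitin ligases of Polycomb repressive complex 1, which modifies histone H2A at silenced genes. The labels do not give the Cre driver or how many independent cell lines were used, nor whether replicate samples were separate cultures, so a p-value here measures only the variation among these 4 samples, which may be technical.

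The reads of each library were solved from the deposited group means, and the libraries are called A and B in each group, letters that are not linked to the replicate numbers of the labels. They came to 5687967 and 4509718 reads for OHT libraries A and B, and to 6255320 and 3841243 reads for EtOH libraries A and B. Rnf2, the gene for Ring1b, averaged 757 normalised reads in OHT cells and 636 in EtOH cells in the authors' deposited table, with an adjusted p of 1. In that table Ring1, the gene for Ring1a, averaged 122 normalised reads in OHT cells and 68.3 in EtOH cells. Cdkn2a averaged 48.5 in OHT cells and 49.8 in EtOH cells. A count over a whole transcript does not read the deleted exons alone and so does not check the labels. The cells were rich in myeloid markers, with summed macrophage markers of 979 to 5475 normalised reads per library. They were poor in T and NK cell markers, which summed to 2.23 to 5.88. B cell markers summed to 58.9 to 189, of which Cd79b had 56.4 to 181.

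Chemokine genes were higher in OHT cells over much of the family. Of the 41 genes, 37 (90.2%) had a log2 fold change above 0 in the authors' deposited table, against 51.6% of all symbols. Their median log2 fold change was 1.06, against 0.04 over all symbols. Fewer reached the threshold: 3 genes, Cxcl14, Ccl24 and Cxcr2, rose at an adjusted p under 0.05 per the authors' deposited table, which is 7.32% of the family beside a background of 3.94% of all symbols called higher. None fell, beside a background of 2.02% called lower, and at an unadjusted p under 0.05 the authors' deposited table held 14 genes higher and 0 lower, beside 8.48% of all symbols higher and 7.18% lower. A limma-voom fit to the solved reads, Benjamini-Hochberg adjusted over all 11338 transcripts fitted, called 12 of the 41 higher and 0 lower, with 19 genes too low to be fitted. Of the 22 chemokine genes fitted, 54.5% were called higher, beside a background of 9.95% of fitted symbols called higher and 5.62% called lower. In 27 of the 41 genes (65.9%) both OHT libraries lay above both EtOH libraries, as they did for 27.0% of all symbols. In 2 genes, Cxcr4 and Cxcr5, both OHT libraries lay below, as they did for 25.5% of all symbols. In bulk RNA, more RNA per cell and more cells of a kind that expresses a gene cannot be told apart.

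**Figure D1:**
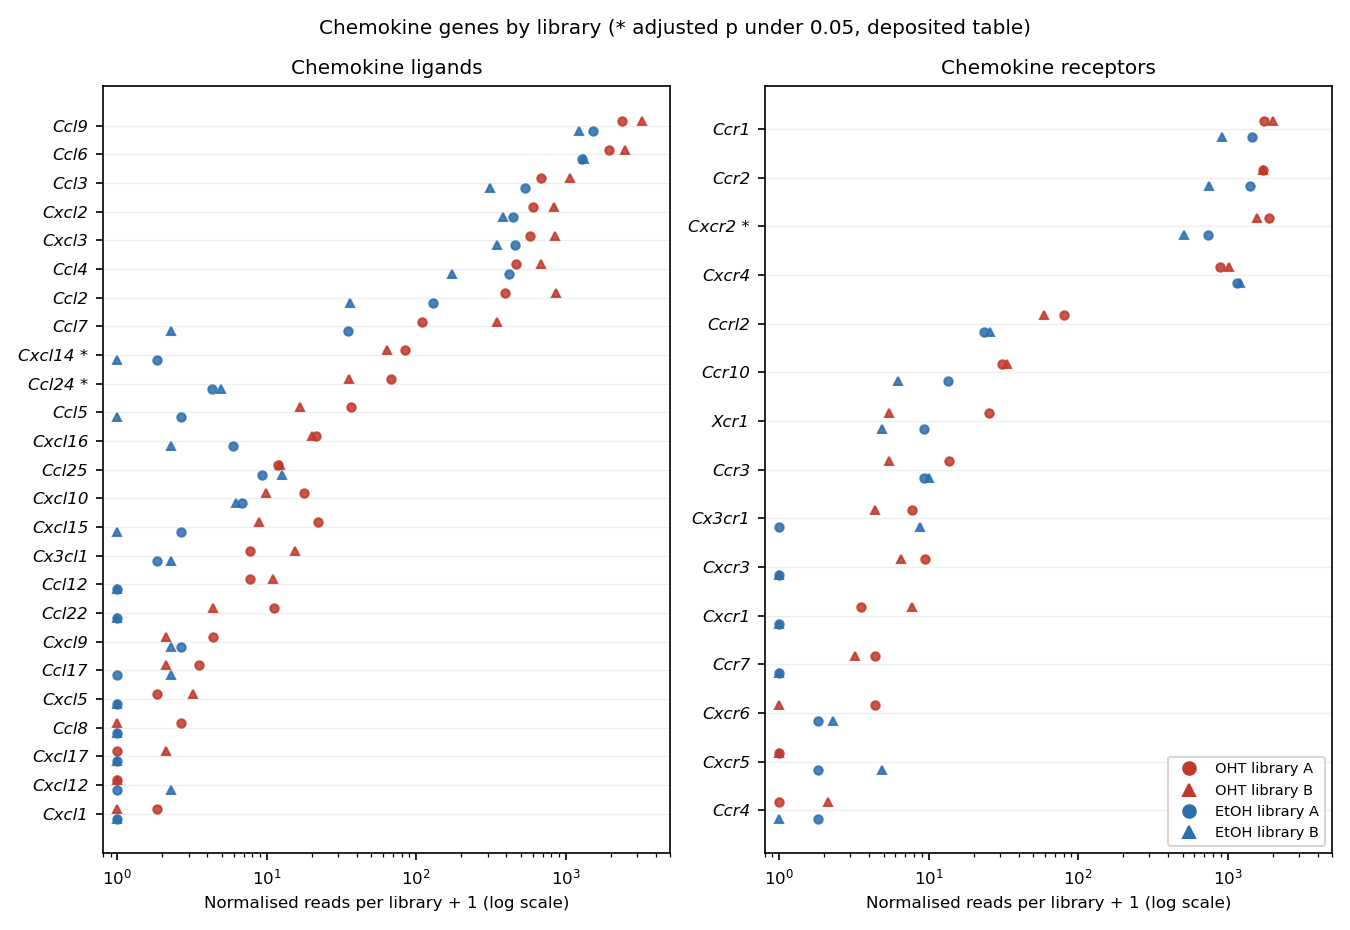
Normalised reads of each chemokine ligand (left) and receptor (right) in the OHT libraries (red) and the EtOH libraries (blue), plus 1, on a log scale; circles are library A, triangles library B, and a star marks an adjusted p under 0.05 per the authors' deposited table. Of the 40 genes drawn, both red points lie to the right of both blue points in 26, among them the starred Cxcl14, Ccl24 and Cxcr2, and to their left for Cxcr4 and Cxcr5.

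Summed over the 25 ligands, OHT libraries A and B held 7412 and 10581 normalised reads, against 4840 and 3824 in EtOH libraries A and B. The lower OHT sum was 1.53 times the higher EtOH sum. Summed over the 16 receptors, OHT libraries held 6759 and 6760 normalised reads, against 5016 and 3523 in EtOH libraries. The median log2 fold change in the authors' deposited table was 1.06 over the 25 ligands and 0.89 over the 16 receptors.

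Cxcl14 (NM_019568), a CXC ligand that epithelia make at rest, had the largest fold of the family in the authors' deposited table. It had 83.1 and 62.5 normalised reads in OHT libraries A and B, against 0.829 and 0 in EtOH libraries A and B. Those values stand for 155 reads in OHT cells and 1 read in EtOH cells, a depth-scaled ratio of 147 with an exact 95% counting interval of 25.9 to 5829. The gene was close to silent in both EtOH libraries and read in both OHT libraries. The authors' deposited table gives 49.9-fold, a value lowered by the read it adds to each library, with an adjusted p of 6.24e-10. The limma-voom log2 fold change was 6.35 ± 0.70 (SE, n = 2 libraries per group, adjusted p = 0.00156).

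Ccl24 (NM_019577), also called eotaxin-2, binds Ccr3 and is made by macrophages under type 2 cytokines. It had 66.3 and 34.6 normalised reads in OHT libraries A and B, against 3.32 and 3.91 in EtOH libraries A and B. Both OHT values were well above both EtOH values, and the fold in the authors' deposited table was 11 with an adjusted p of 0.00936. With limma-voom the log2 fold change was 3.61 ± 0.68 (SE, n = 2 libraries per group, adjusted p = 0.00898). Its receptor Ccr3, with 19 reads in OHT cells and 17 in EtOH cells, had a log2 fold change of -0.04 and an adjusted p of 1 per the authors' deposited table.

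The stretches upstream of 3 genes are shown: Cxcl14, the gene with the largest fold, Cxcr2, the receptor that rose, and Cxcr4, an abundant receptor that was not called. Each is the 250 bases before the start of the RefSeq gene in GRCm38.p6, 5′ to 3′ on the strand of the gene, with CG pairs in capitals. No binding or histone data were part of the comparison.
Cxcl14, chr13:56296552-56296801, minus strand: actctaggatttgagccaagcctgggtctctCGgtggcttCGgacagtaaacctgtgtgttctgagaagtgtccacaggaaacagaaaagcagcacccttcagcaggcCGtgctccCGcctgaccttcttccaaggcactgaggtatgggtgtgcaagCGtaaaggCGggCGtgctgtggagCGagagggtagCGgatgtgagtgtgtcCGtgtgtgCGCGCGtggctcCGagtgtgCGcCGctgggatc
Cxcr2, chr1:74153744-74153993, plus strand: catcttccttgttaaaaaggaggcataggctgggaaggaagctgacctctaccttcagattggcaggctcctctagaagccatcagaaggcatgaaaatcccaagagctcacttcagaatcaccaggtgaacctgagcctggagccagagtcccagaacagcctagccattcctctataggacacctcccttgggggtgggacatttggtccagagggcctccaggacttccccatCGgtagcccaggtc
Cxcr4, chr1:128592300-128592549, minus strand: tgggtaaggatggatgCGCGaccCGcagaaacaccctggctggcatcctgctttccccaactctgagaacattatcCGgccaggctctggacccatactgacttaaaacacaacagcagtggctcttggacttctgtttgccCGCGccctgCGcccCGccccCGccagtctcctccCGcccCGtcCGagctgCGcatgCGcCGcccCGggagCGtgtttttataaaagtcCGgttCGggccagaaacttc
The Cxcl14 stretch held 16 CG pairs and the Cxcr4 stretch 19, which put them at percentiles 74.6 and 80.3 of the 32851 stretches in the RefSeq table. The Cxcr2 stretch held 1, and 7.87% of all stretches had fewer. The median stretch had 6. Of the 41 genes, 29 matched a stretch, and their median was 3 CG pairs, where a gene with several stretches counted by its highest. The 12 genes without a stretch included Ccl2, Ccl5, Ccl7 and Ccl24.

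Cxcr2 (NM_009909), the receptor through which neutrophils follow Cxcl1, Cxcl2, Cxcl3 and Cxcl5, rose and was abundant in both groups. It had 1900 and 1584 normalised reads in OHT libraries A and B, against 735 and 510 in EtOH libraries A and B. The lower OHT value was more than 2 times the higher EtOH value. The fold in the authors' deposited table was 2.79 with an adjusted p of 4.01e-05, and the limma-voom log2 fold change was 1.49 ± 0.24 (SE, n = 2 libraries per group, adjusted p = 0.0044). Cxcr1 (NM_178241), the neighbouring receptor gene on chromosome 1, had 9 reads in OHT cells and 0 in EtOH cells. With a floor of 3 reads over a group in place of 0, the ratio was 2.84. Such a ratio leaves out counting error and is no lower limit.

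The symbol rule took 5 ligands listed for Cxcr2, namely Cxcl1, Cxcl2, Cxcl3, Cxcl5 and Cxcl15, and none was called in the authors' deposited table. Cxcl2 (NM_009140) had 603 and 833 normalised reads in OHT libraries A and B, against 444 and 382 in EtOH libraries A and B. Cxcl3 (NM_203320) had 575 and 847 in OHT libraries, against 459 and 345 in EtOH libraries. For both genes the groups did not overlap, and the folds of 1.74 and 1.77 in the authors' deposited table had adjusted p of 0.183 and 0.388. With limma-voom their log2 fold changes were 0.77 ± 0.24 and 0.79 ± 0.26 (SE, n = 2 libraries per group, adjusted p = 0.0545 and 0.0669). Cxcl15, known as lungkine, had 32 reads in OHT cells and 2 in EtOH cells, a ratio of 15.1 with a counting interval of 3.86 to 130. Cxcl5 had 3 reads and Cxcl1 1 read in OHT cells, and both had 0 in EtOH cells, so neither can be compared. Reads of the closely related Cxcl1, Cxcl2 and Cxcl3 may have been split between them, since how the authors counted reads is not given in the sources used here.

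Transcription of Cxcl1, Cxcl2, Cxcl3 and Cxcl10 is known to respond to NF-kappaB, and the site letters are shown for these genes to set their promoters beside their levels. The 10-letter kappaB consensus was searched on both strands in the same 250 bases. Each window below is 30 bases of GRCm38.p6 on the strand of the gene, 5′ to 3′, with the match in capitals.
Cxcl1, chr5:90891164-90891193, plus strand: cctgtactccGGGAATTTCCctggcccgga
Cxcl2, chr5:90903792-90903821, plus strand: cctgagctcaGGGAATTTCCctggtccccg
Cxcl3, chr5:90786018-90786047, plus strand: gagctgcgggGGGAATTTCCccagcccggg
Cxcl10, chr5:92349029-92349058, minus strand: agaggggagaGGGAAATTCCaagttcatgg
Cxcl10, chr5:92348974-92349003, minus strand: tcggtttacaGGGGACTTCCctcgggttgc
Cxcl1, Cxcl2 and Cxcl3 share the same 10 letters in capitals. In OHT cells Cxcl2 and Cxcl3 had 1464 and 1444 reads and Cxcl1 had 1 read. What part the site had in these levels was not tested. A match was present in 8 of the 29 matched genes (27.6%), against 7.25% of all stretches. Apart from the genes shown, these were the ligand Ccl9 and the receptors Ccr1, Ccr3 and Ccrl2. TATAAA, the letters of a TATA box, were present in 10 of the 29 (34.5%), against 12.4% of all stretches. These are shares of genes set beside shares of stretches, and a few genes had several stretches. A match is a description of letters and no measure of binding.

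Among the interferon-inducible ligands of Cxcr3, Cxcl10 (NM_021274) had 28 reads in OHT cells and 11 in EtOH cells, a ratio of 2.41 with a counting interval of 1.16 to 5.36. Its adjusted p in the authors' deposited table was 0.868. Cxcl9 had 5 reads in OHT cells and 3 in EtOH cells. Their receptor Cxcr3 had 15 reads in OHT cells and 0 in EtOH cells, a ratio of 4.73 against the floor of 3 reads. Cxcr3 was not called in the authors' deposited table.

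The monocyte-attracting CC ligands lie in 2 clusters on chromosome 11, and none of the 9 measured was called in the authors' deposited table. The background there was 3.94% of all symbols called higher. With limma-voom 6 of the 7 fitted were called higher (85.7%), beside 9.95% of all fitted symbols. Ccl2 (NM_011333), the main ligand of Ccr2, had 391 and 864 normalised reads in OHT libraries A and B, against 128 and 35.2 in EtOH libraries A and B. The lower OHT value was about 3 times the higher EtOH value, but each group spread widely. The fold in the authors' deposited table was 7.62 with an adjusted p of 0.159, and the limma-voom log2 fold change was 2.97 ± 0.56 (SE, n = 2 libraries per group, adjusted p = 0.00876). It was 2.17 without EtOH library B and 4.01 when EtOH library A was left out, and stayed called by limma-voom without any 1 library.

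Ccl7 (NM_013654), the gene next to Ccl2 and another ligand of Ccr2, had 109 and 348 normalised reads in OHT libraries A and B, against 34 and 1.3 in EtOH libraries A and B. EtOH library B held 1 read of it and EtOH library A 41. The fold in the authors' deposited table was 12.3 with an adjusted p of 0.349, and the limma-voom log2 fold change was 4.26 ± 1.10 (SE, n = 2 libraries per group, adjusted p = 0.0288). It was 2.42 without EtOH library B, where the limma-voom adjusted p was 0.0535, 6.56 without EtOH library A, 5.11 without OHT library A and, lacking OHT library B, 3.44. Further along the cluster, Ccl12, a mouse ligand of Ccr2, had 17 reads in OHT cells and 0 in EtOH cells. Against the floor of 3 reads its ratio was 5.36. Ccl8 had 2 reads in OHT cells and 0 in EtOH cells, too few for a ratio.

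In the second cluster the genes run in the order Ccl5, Ccl9, Ccl6, Ccl3 and Ccl4, all of them ligands that attract monocytes and macrophages. Ccl5 (NM_013653), made by T cells and activated macrophages, had 35.3 and 15.6 normalised reads in OHT libraries A and B, against 1.66 and 0 in EtOH libraries A and B. Its 56 reads in OHT cells and 2 in EtOH cells gave a ratio of 26.5 with a counting interval of 7 to 224. The adjusted p of 0.0516 per the authors' deposited table just missed the threshold. The limma-voom log2 fold change was 4.42 ± 0.85 (SE, n = 2 libraries per group, adjusted p = 0.00923), and ran between 3.58 without EtOH library B and 5.25 without EtOH library A.

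Ccl9 (NM_011338) and Ccl6 (NM_009139) are rodent CC ligands of Ccr1 made by myeloid cells, and had the most reads of the family. Ccl9 had 2369 and 3244 normalised reads in OHT libraries A and B, against 1526 and 1229 in EtOH libraries A and B. Ccl6 had 1935 and 2495 in OHT libraries, against 1277 and 1323 in EtOH libraries. Neither gene overlapped between groups, and the folds in the authors' deposited table were 2.04 and 1.7 with adjusted p of 0.0598 and 0.0953. With limma-voom the log2 fold changes were 1.02 ± 0.23 and 0.76 ± 0.21 (SE, n = 2 libraries per group, adjusted p = 0.0173 and 0.0376). Both lost the limma-voom call without OHT library B, where the values were 0.78 and 0.58.

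Ccl3 (NM_011337) and Ccl4 (NM_013652), inflammatory ligands made by activated macrophages, ran in parallel. Ccl3 had 681 and 1070 normalised reads in OHT libraries A and B, against 531 and 309 in EtOH libraries A and B. Ccl4 had 462 and 687 in OHT libraries, against 413 and 173 in EtOH libraries. The lower OHT value stood close to the higher EtOH value in both genes, and the folds of 2.08 and 1.96 in the authors' deposited table had adjusted p of 0.426 and 0.647. With limma-voom the log2 fold change of Ccl3 was 1.04 ± 0.30 (SE, n = 2 libraries per group, adjusted p = 0.0457), and Ccl4 had a limma-voom adjusted p of 0.0931. The Ccl3 call of limma-voom was lost without OHT library B, at 0.72, and without EtOH library B, at 0.69, while Ccl4 ran from 0.44 without EtOH library B to 1.69 without EtOH library A.

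**Figure D2:**
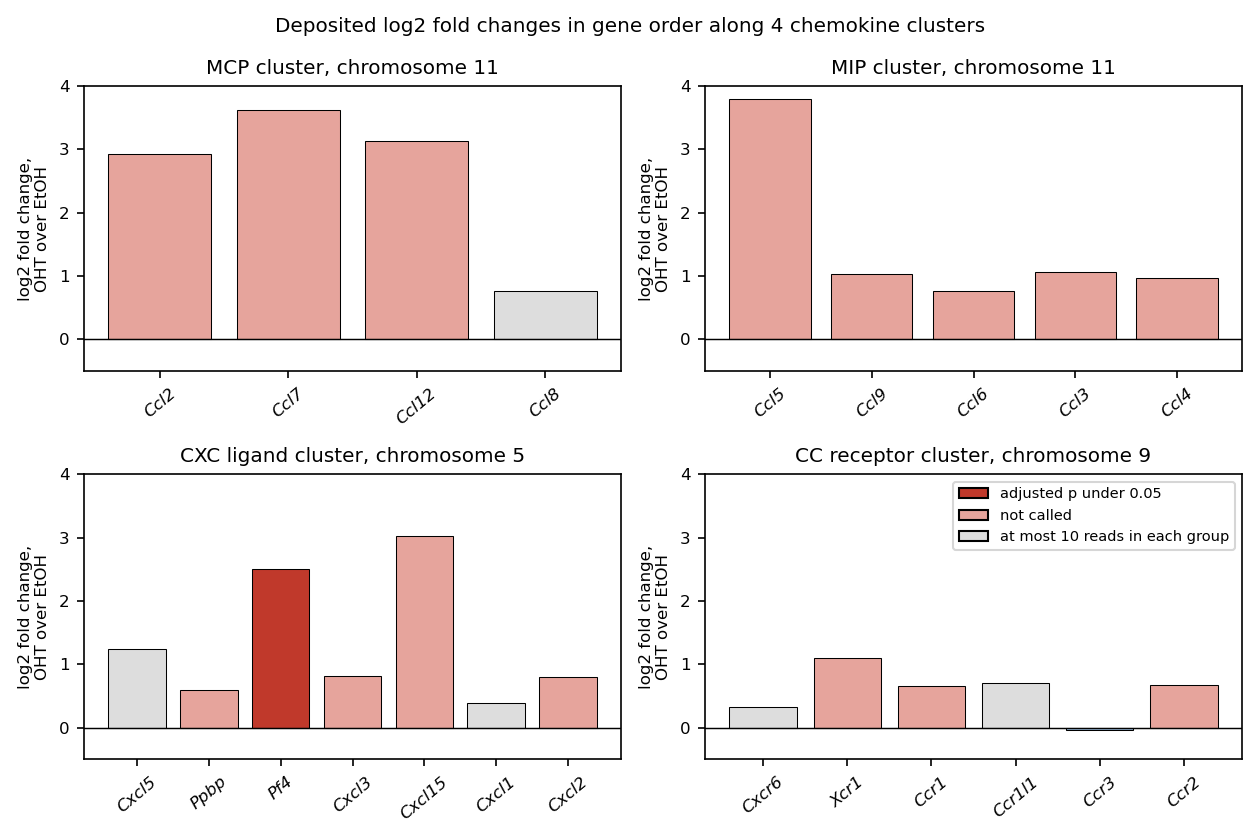
Log2 fold change, OHT over EtOH, in the authors' deposited table for neighbouring genes of 4 chemokine clusters in their RefSeq order. Dark bars mark an adjusted p under 0.05, and grey bars genes with at most 10 reads in each group. Light red bars are higher genes that were not called, and the light blue bar is Ccr3, at -0.04 and not called. In the cluster with Ccl2 the bars of Ccl2, Ccl7 and Ccl12 stand at 2.93, 3.62 and 3.13, in the next one Ccl5 stands at 3.80 beside 0.77 to 1.06 for its 4 neighbours, and Pf4 is the dark bar among the CXC ligands.

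Neighbouring genes had folds of different size. Among the CXC ligands on chromosome 5, Pf4, platelet factor 4, which the symbol rule does not take, lay between Cxcl5 and Cxcl3 with Ppbp beside it. Pf4 had 249 and 222 normalised reads in OHT libraries A and B, against 52.2 and 28.6 in EtOH libraries A and B, and rose 5.69-fold with an adjusted p of 9.53e-08 per the authors' deposited table. Ppbp, pro-platelet basic protein, whose product is another ligand of Cxcr2, averaged 1646 normalised reads in OHT cells and 1092 in EtOH cells there, with an adjusted p of 0.327. Of the 5 measured family genes with other symbols, Pf4 was the 1 called in the authors' deposited table.

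Of the remaining CC ligands, Ccl22 (NM_009137), which binds Ccr4, had 15 reads in OHT cells and 0 in EtOH cells. Against the floor of 3 reads its ratio was 4.73. Ccl17, the other ligand of Ccr4, had 4 reads in OHT cells and 1 in EtOH cells, and Ccr4 itself 1 read in each group. Ccl25, a gut and thymus ligand, had 23 reads in OHT cells and 19 in EtOH cells. Its other transcript (NR_033527) lay in the opposite direction, with 10 reads in OHT cells and 23 in EtOH cells, a ratio of 0.411 with a counting interval of 0.175 to 0.899, and neither transcript was called in the authors' deposited table. None of these 3 ligands was called in the authors' deposited table.

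Cxcl16 (NM_023158), a membrane-bound ligand of Cxcr6, had 20.2 and 19 normalised reads in OHT libraries A and B, against 4.98 and 1.3 in EtOH libraries A and B. Its fold of 4.89 in the authors' deposited table had an adjusted p of 0.221. The limma-voom log2 fold change was 2.54 ± 0.71 (SE, n = 2 libraries per group, adjusted p = 0.039). That call was lost when OHT library A (2.49), OHT library B (2.56) or EtOH library B (1.90) was left out. Cx3cl1, the other membrane-bound ligand, had 21 reads in OHT cells and 2 in EtOH cells, a ratio of 9.93 with a counting interval of 2.43 to 87.4. Cxcl17 had 1 read in OHT cells and 0 in EtOH cells, and Cxcl12, the marrow ligand of Cxcr4, 0 reads in OHT cells and 1 in EtOH cells, with 1 and 0 on its other transcript.

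Among the CC receptors, 7 of the 10 listed were measured and none was called in the authors' deposited table. Ccr1 (NM_009912), which binds Ccl3, Ccl5, Ccl6, Ccl7 and Ccl9, had 1754 and 2017 normalised reads in OHT libraries A and B, against 1466 and 917 in EtOH libraries A and B. Ccr2 (NM_009915), the monocyte receptor for Ccl2, had 1717 and 1735 in OHT libraries, against 1416 and 751 in EtOH libraries. EtOH library B was the low one in both genes. The folds in the authors' deposited table were 1.58 and 1.59 with adjusted p of 0.341 and 0.516. With limma-voom the log2 fold changes were 0.69 ± 0.25 and 0.73 ± 0.28 (SE, n = 2 libraries per group, adjusted p = 0.0872 and 0.103). Ccr2 and its ligand Ccl2 therefore had folds of 1.59 and 7.62 in the authors' deposited table, a difference between genes that was not tested.

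Ccr10 (NM_007721), a skin-homing receptor, had 30.2 and 32.4 normalised reads in OHT libraries A and B, against 12.4 and 5.21 in EtOH libraries A and B. With limma-voom its log2 fold change was 1.80 ± 0.56 (SE, n = 2 libraries per group, adjusted p = 0.0578). Ccr7, which guides cells to lymph nodes, had 6 reads in OHT cells and 0 in EtOH cells. Against the floor of 3 reads its ratio was 1.89.

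Ccrl2 (NM_017466) binds chemerin without signalling and presents it to Cmklr1, a signalling chemoattractant receptor. It had 78.9 and 58.1 normalised reads in OHT libraries A and B, against 22.4 and 24.7 in EtOH libraries A and B. The libraries of each group lay close together, and the adjusted p of 0.0518 per the authors' deposited table, for a fold of 2.82, just missed the threshold. The limma-voom log2 fold change was 1.53 ± 0.42 (SE, n = 2 libraries per group, adjusted p = 0.0346), and the call was lost on leaving out OHT library A, at 1.30, EtOH library A, at 1.45, or EtOH library B, at 1.60. Cmklr1 averaged 85 normalised reads in OHT cells and 4.86 in EtOH cells and rose 17.5-fold with an adjusted p of 3.17e-04 per the authors' deposited table.

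Cxcr4 (NM_009911), the receptor for Cxcl12 that retains leukaemic and normal progenitors in marrow, lay on the other side. It had 883 and 1019 normalised reads in OHT libraries A and B, against 1160 and 1211 in EtOH libraries A and B. Both OHT values were below both EtOH values, yet the fold of 0.802 in the authors' deposited table had an adjusted p of 0.82. The limma-voom log2 fold change was -0.32 ± 0.20 (SE, n = 2 libraries per group, adjusted p = 0.306). Cxcr5, a B cell receptor, had 0 reads in OHT cells and 4 in EtOH cells, too few to give a direction. Its unadjusted p was 0.573 per the authors' deposited table. Of the other receptors, Xcr1 had 33 reads in OHT cells and 13 in EtOH cells, Cx3cr1 11 and 6, and Cxcr6 4 and 2, and none was called in the authors' deposited table. Xcr1 had 29 reads in OHT library A and 4 in OHT library B, and its limma-voom log2 fold change was -0.39 without OHT library A and 1.91 when OHT library B was left out.

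**Figure D3:**
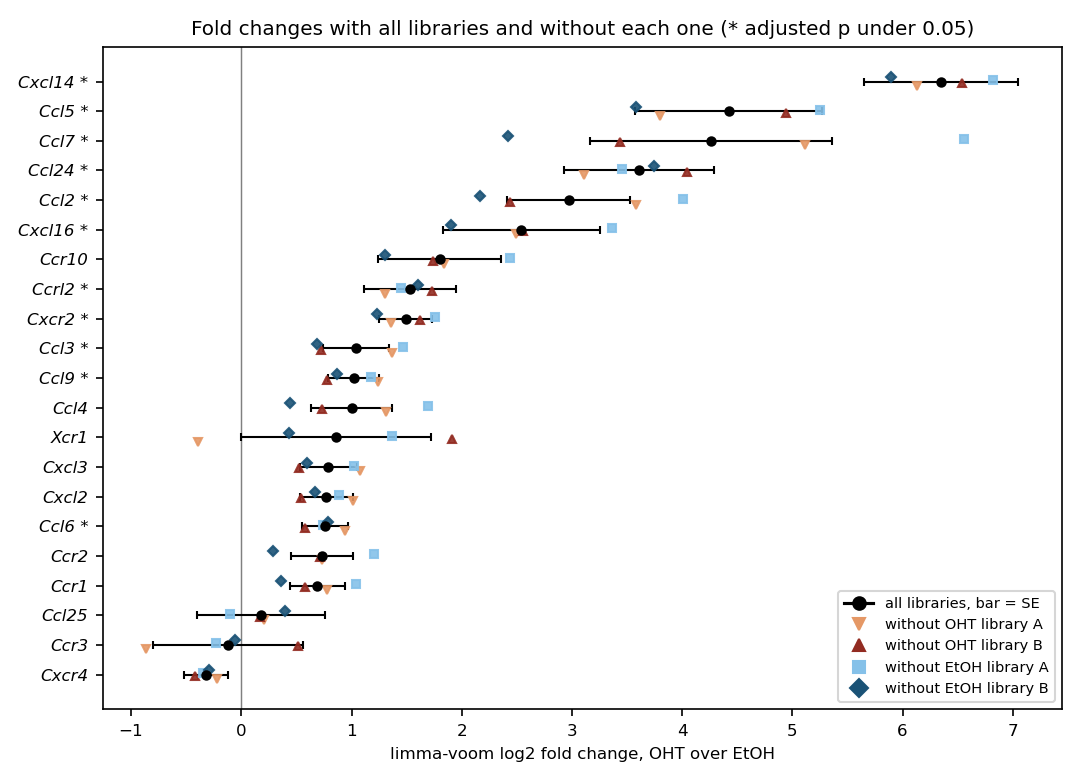
limma-voom log2 fold change, OHT over EtOH, of 21 chemokine genes that could be fitted, with all 4 libraries (black, bar = SE) and without each library in turn (coloured); a star marks an adjusted p under 0.05 with all libraries. The 11 starred genes keep their direction without any 1 library. The spread of the coloured points is wide for Ccl7, from 2.42 to 6.56, and narrow for Ccl6, from 0.58 to 0.94.

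Of the 12 limma-voom calls, 5 held without any 1 library: Cxcl14, Ccl24, Ccl5, Ccl2 and Cxcr2. The number of chemokine genes called by limma-voom was 11 and 8 without OHT library A or B in turn, and 17 and 7 without EtOH library A or B in turn. The share of all fitted symbols called higher moved as well: it was 7.19% and 9.46% without OHT library A or B, and 14.4% and 7.73% without EtOH library A or B, against 9.95% with all libraries. With 3 libraries the fit assumes that the lone library of a group varies like the other group.

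Levels can be compared between genes per kilobase of transcript. On that scale, as the mean of normalised reads per kb in the authors' deposited table, Ccl6 stood highest with 1539 in OHT cells and 904 in EtOH cells. Ccl3 followed with 1144 in OHT cells and 549 in EtOH cells, then Ccl9 with 934 and 459 and Ccl4 with 872 and 446. Ccl2 came next in OHT cells with 773 per kb, against 101 in EtOH cells. Ccr1, with 666 per kb in OHT cells and 421 in EtOH cells, was the highest receptor in OHT cells. Cxcr4, with 527 per kb in OHT cells and 657 in EtOH cells, was the highest receptor in EtOH cells, where Cxcr2 had 205 per kb against 572 in OHT cells. Cxcl14 reached 40.4 per kb in OHT cells, against 0.81 in EtOH cells. The 3 genes that rose were 2 ligands of low level per kb in both groups and 1 abundant receptor.

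The abundant members lay at high read density. No transcript exceeded 1.85 and 1.8 reads per base in OHT libraries A and B or 1.8 and 1.76 in EtOH libraries A and B. Below 0.1 reads per base, transcripts with at least 100 reads in each library had a median ratio of library A to library B reads of 1.34 in OHT cells and 1.88 in EtOH cells. Above 1.4 reads per base that ratio was 1.02 in both groups, although the size factors differ by 1.33 and 1.57. Reads of the densest transcripts did not scale with depth. Ccl6 had 1.6 and 1.55 reads per base in OHT libraries A and B, against 1.07 and 0.706 in EtOH libraries A and B, and Ccl3 1.06 and 1.25 in OHT libraries, against 0.836 and 0.309 in EtOH libraries. What part this had in the folds of Ccl6, Ccl3, Ccl9 and Ccl4, or in their order per kb, was not tested. With size factors taken from 7697 transcripts under 0.2 reads per base, limma-voom again called 12 chemokine genes higher, of which 11 were the same, with Ccr10 in place of Ccl6.

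**Figure D4:**
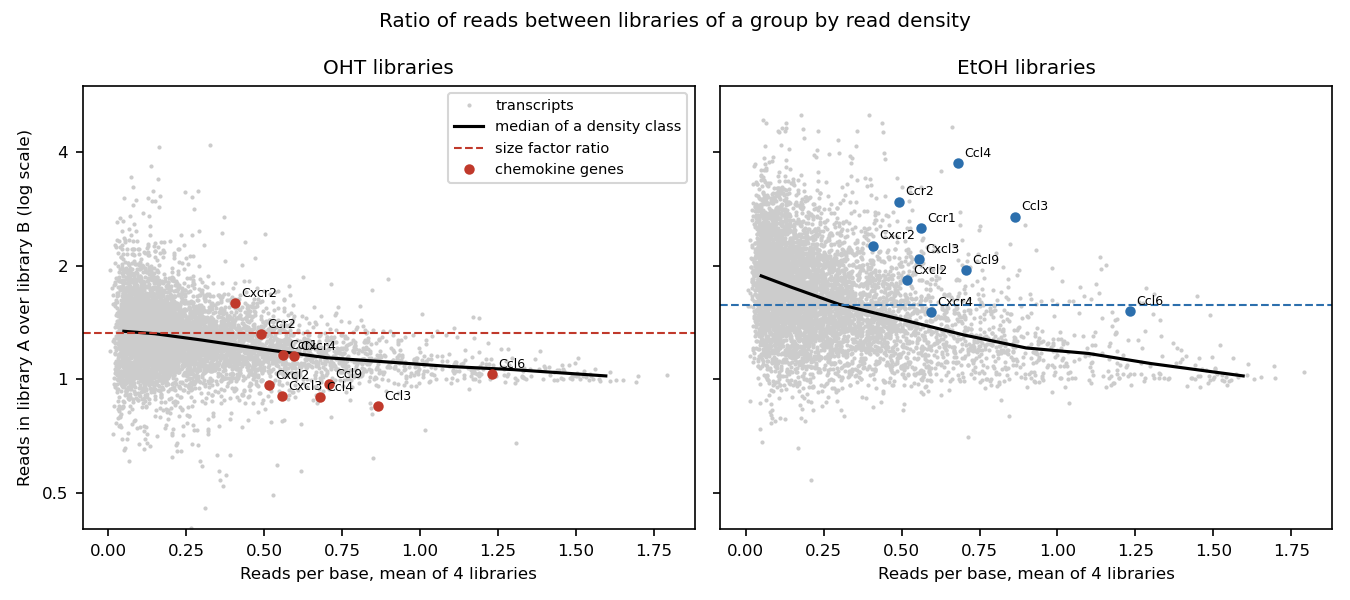
Ratio of reads in library A to library B of the same group, on a log scale, against reads per base of transcript averaged over the 4 libraries, for OHT (left) and EtOH (right); grey points are transcripts with at least 100 reads in each library, the black line is the median of each density class, the dashed line the ratio of size factors, and coloured points are chemokine genes. The black line nears 1 at high density in both panels, and Ccl6 lies farthest right among the chemokine genes.

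Libraries of a group also differed in their normalised chemokine reads. Among the 9 ligands with a mean of at least 10 in both groups, normalised reads were higher in OHT library A than in OHT library B in 0 of 9, against 44.2% of all symbols. They were higher in EtOH library A than in EtOH library B in 7 of 9, against 57.4% of all symbols. This background was not matched for read density. Between 0.8 and 1.0 reads per base, the median ratio of library A to library B reads was 1.11 in OHT and 1.21 in EtOH cells. The size factor ratios were 1.33 and 1.57, so normalised reads of dense transcripts tended to be higher in library B. What part density had in the order of the ligands was not tested. The summed macrophage markers had the same order of libraries as the ligand sum, and Emr1, with 3315 of the 5475 normalised reads in OHT library B, made up much of that sum. Summed over the 7 measured of 8 listed, they came to 4851 and 5475 normalised reads in OHT libraries A and B, against 2632 and 979 in EtOH libraries A and B. Of these, 3 rose in the authors' deposited table (C1qa, C1qb and Mertk) and none fell, beside 3.94% and 2.02% of all symbols. None was at 0 reads over all libraries. Within the OHT group, 4 of the 7 were higher in library B and 3 (Csf1r, Mertk and Mrc1) in library A. The part that more macrophage RNA had in the chemokine differences was not tested.

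Of the other marker sums, that of erythroid markers had this order too. The marker calls below stand beside 3.94% of all symbols called higher and 2.02% called lower in the authors' deposited table. Neutrophil markers, 6 of 7 listed, summed to 2161 and 1042 normalised reads in OHT libraries A and B, against 954 and 2529 in EtOH libraries A and B, and 0 were called in the authors' deposited table beside the rise of Cxcr2. Basophil, eosinophil and mast cell markers summed to 2172 and 4067 in OHT libraries, against 3145 and 3759 in EtOH libraries, and 0 of 6 were called there. Platelet and megakaryocyte markers summed to 921 and 2092 in OHT libraries, against 1244 and 659 in EtOH libraries, with Pf4 as the 1 call. Markers of leukaemic progenitors summed to 3065 and 4742 in OHT libraries, against 4055 and 1995 in EtOH libraries, with 0 of 6 called. T and NK cell markers stayed at or under 5.88 in every library, with Cd3g and Ncr1 at 3 reads or fewer in each group. Erythroid markers summed to 58.8 and 91.5 in OHT libraries, against 17.4 and 16.9 in EtOH libraries, with Epor as the 1 call of 3 in the authors' deposited table, and stromal markers to 46.2 and 40.2 in OHT libraries, against 15.8 and 37.8 in EtOH libraries, with Col1a1 as the 1 call of 4. B cell markers summed to 189 and 99.4 in OHT libraries, against 58.9 and 113 in EtOH libraries, and endothelial ones to 21.8 and 26.8 in OHT libraries, against 34.8 and 15.6 in EtOH libraries, with 0 called of either.

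Of 33 listed genes of chemokine receptor signalling, 31 were measured and the authors' deposited table called 2 higher and 1 lower, with a median log2 fold change of 0.17, against 0.04 over all symbols. These are 6.45% and 3.23% of the list, near the 3.94% higher and 2.02% lower over all symbols. Grk5, a kinase that desensitises active receptors, rose 3.36-fold with an adjusted p of 0.0068 there, and Prex1, an exchange factor for Rac, 1.86-fold with an adjusted p of 0.0366. Rgs18, an inhibitor of G protein signalling in platelets and myeloid cells, was 2.03-fold lower in OHT cells in the authors' deposited table, with an adjusted p of 0.00863. Of 12 other chemoattractant receptors, 10 were measured with a median log2 fold change of 1.21, and Cmklr1 was the 1 call in the authors' deposited table, beside 3.94% of all symbols called higher. Of 16 listed inducers of chemokine genes, 15 were measured and the authors' deposited table called 3 higher and 0 lower, beside 3.94% and 2.02% of all symbols, with a median log2 fold change of 0.72. Il1b, a cytokine that induces Cxcl and Ccl ligands, rose 4.24-fold with an adjusted p of 0.0107. Irf8, a transcription factor of the monocyte lineage, rose 4.19-fold with an adjusted p of 3.27e-04, and Nfkbia, an inhibitor and target of NF-kappaB, 2.03-fold with an adjusted p of 0.0171, all in the authors' deposited table. The atypical receptors Ackr4 and Darc averaged 2.38 and 1.54 normalised reads in OHT cells and 1.48 and 1.07 in EtOH cells in the authors' deposited table, too few to compare.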

How the data were processed

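RNA from 4 samples was sequenced, with library kits that do not mark strand, per the labels' protocols. TopHat, DESeq and build mm9 are named in the submitters' processing notes, and how reads were counted is not given in the sources used here. The file is the authors' comparison of OHT with EtOH. Its signal columns are the deposited base means of each group, in normalised reads. Its deposited ratio column is the OHT mean over the EtOH mean, with its log2 in a further deposited column. The deposited p-value and adjusted p columns are the authors', and calls use an adjusted p under 0.05.

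Each mean equals the average over 2 libraries of whole reads plus 1, divided by a size factor, and solved to 1 pair of read numbers for 100% of 18061 transcripts in each group. Of means moved by up to 0.1%, 0.21% of OHT and 0.205% of EtOH means still solved. Size factors were 1.191 and 0.8957 for OHT libraries A and B and 1.206 and 0.768 for EtOH libraries A and B. Solved reads were fitted with limma-voom (limma 3.58.1, R 4.3.3, with 2 residual degrees of freedom) for transcripts with at least 10 reads in 2 libraries. P-values were Benjamini-Hochberg adjusted over all of them. In simulated reads with the same set spread for every gene, the fit recovered 10.0% of 1.5-fold and 18.0% of 2-fold changes. It recovered 91.7% of 4-fold and 100.0% of 8-fold changes. A gene that was not called may therefore still differ. Ratios of reads between groups were scaled by the summed size factors of each group, with exact 95% intervals that cover counting error only. Where a group had no reads, 3 reads were put in its place and no interval was given. Transcript lengths came from GENCODE M21 by RefSeq ID, for 17634 transcripts. Gene order and upstream stretches came from RefSeq tables of GRCm38.p6.

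Named genes were those called in the authors' table or by limma-voom, or with a mean of at least 50 in either group. Others are given mainly in counts or reads. Ccr10, outside these criteria, is given with normalised reads and a limma-voom fit as well. The genes and lists were chosen with earlier results of these data known. Of the genes that the rule names, 1 counts in the totals but is not reported here.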

Additional observations from a re-analysis of the deposited data

How the results depend on the processing

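The count of chemokine genes called higher, 3 in the authors' deposited table, was 8 at an adjusted p under 0.1, 3 under 0.01 and 14 at an unadjusted p under 0.05. At that unadjusted p, 8.48% of all symbols were higher. Over the 11338 transcripts fitted, limma-voom on solved reads called 1102 higher, and 1231 with TMM scaling. The number was 1221 with size factors from transcripts of low read density, and 1646 of 18061 with no filter on low reads. Of the chemokine genes it called 12, and 15 with TMM scaling. With low-density size factors, an alternative chosen after seeing the data, it called 12 of them, and with no filter 24. Leaving out 1 library at a time gave 7 to 17. The count called lower was 0 in each of these. The ligand median log2 fold change of 1.06 was 1.68 over the fewer ligands whose higher group mean reached 10 and 0.78 to 1.69 without 1 library. The receptor median of 0.89 was 0.43 to 1.41 without 1 library. For 18 named genes under 8 limma-voom settings, 72 values stayed on the side of the threshold they have in the authors' table, 72 passed it in limma-voom alone, and 0 changed direction. No paired analysis was possible because the solved libraries carry no replicate numbers of the labels. With 2 libraries per group, folds of genes with few reads are known only within wide counting intervals.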
